A study of Caenorhabditis elegans with 15 samples.

Results

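The age by tissue interaction asks which transcripts changed differently with age in body-wall muscle and in neurons of Caenorhabditis elegans. For each gene it is the age change in muscle (day 12 minus young adult, log2) minus the age change in neurons. It rests on 8 of the 15 libraries of the series and was taken over every gene of the deposited count table, 14831 in all, of which 8954 had enough reads to be tested. A positive value means that a transcript rose more, or fell less, in muscle than in neurons. Only transcripts that carry a tagged spliced leader were sequenced. The muscle strain, Pmyo-3::tag:SL1(G16C), made the tagged SL1 leader from the promoter of the myosin heavy chain gene myo-3, and the neuron strain, Prgef-1::tag:SL1(G16C), made it from the pan-neuronal promoter of rgef-1. Each of the 4 groups had 2 libraries, which the series' design text calls biological replicates. Young adults (day 1) and day 12 animals were kept at 20 °C, and only the aged animals had been given fluorodeoxyuridine, at 400 µM, to keep progeny from developing. Age and this treatment therefore cannot be told apart in either tissue, while both tissues share them. A tissue is defined here by its promoter, so a change of promoter activity or of tag supply with age is part of every value.

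In nematodes many pre-mRNAs lose their first stretch of RNA by trans-splicing, which joins a short leader, mostly SL1, to the 5' end of the message. A leader made in 1 cell type marks the messages of that cell type, which can then be pulled out of RNA from the whole animal. Body-wall muscle ages by losing sarcomere order and contractile force, and neurons signal through large families of peptide genes, among them the FMRFamide-like peptides (flp) and the neuropeptide-like proteins (nlp).

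Reads on genes numbered 992136 and 2289349 in young adult muscle, 464359 and 1684401 in day 12 muscle, 253647 and 282171 in young adult neurons, and 57104 and 112074 in day 12 neurons. The aged neuron libraries were thus the shallowest, and 3 counts in them correspond to 30.1 and 16.96 CPM (read counts set relative to library size with edgeR's scaling, the level unit used throughout). When every library was reduced to the 57104 reads of the shallowest, 3760 and 3732 genes were read in young adult muscle, 4316 and 3351 in day 12 muscle, 3272 and 3297 in young adult neurons, and 5275 and 5910 in day 12 neurons. Replicates of day 12 muscle were the least alike, with a biological coefficient of variation of 1.67 against 0.537 in young adult muscle, 0.983 in young adult neurons and 0.579 in day 12 neurons. For myo-3 itself the young muscle libraries held 117 and 133 reads, those of day 12 muscle 0 and 35, and all neuron libraries 0. Neuron markers were also read in the muscle libraries, where they took 0.358% and 0.295% of reads in young adults, most of them from snb-1 (synaptobrevin). In neurons they took 0.515% and 0.567% in young adults and 0.571% and 0.476% on day 12, and the synaptobrevin partner ric-4 was read 697 and 834 times in young adult neurons against 10 and 0 times in young adult muscle. The promoter gene rgef-1 was not found by name in the count table, so its reads could not be checked. The pan-neuronal marker unc-119 was at 0 in all 8 libraries.

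Most called differences were of transcripts that were more abundant in young muscle than in young neurons and lower in aged than in young muscle. Actin (act-1), elongation factor 1A (eef-1A.2), Hsp90 (daf-21), the chaperonin subunit cct-5 and 5 ribosomal proteins fell in muscle with age, and for each the change differed from that in neurons. In the other direction, 3 FMRFamide-like and 2 neuropeptide-like genes without a read in young muscle were read in aged muscle, and the noncoding RNA tts-1 rose there. The edgeR quasi-likelihood test called 70 genes at an adjusted p under 0.05, 0.782% of those tested, 18 higher in muscle relative to neurons (0.201%) and 52 lower (0.581%). With DESeq2's size factors in place of edgeR's scaling 51 genes were called, 21 higher and 30 lower, and with only the 8 compared libraries in the fit 71 were called, 51 higher and 20 lower, so the split between the directions depends on the scaling and on the libraries fitted. An unadjusted p under 0.05 was reached by 1276 genes (14.3%), 338 higher (3.77%) and 938 lower (10.5%), against which the counts of gene lists at that level are to be read. Among the 2738 genes read in all 4 groups the median difference was -0.22 on the log2 scale. Other scalings shifted every difference by 0.02 (none), 0.30 (DESeq2's size factors) and -0.57 (the deposited RPM values). The smallest called difference was 2.41 in size, so shifts of this size could not change the direction of any of the 70. In bulk RNA, fewer cells of a type and less RNA per cell cannot be told apart.

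Each call depended on some of the 8 libraries, and none of the 70 was called after the removal of every library in turn. The test called no gene without either young adult muscle library, without young adult neuron replicate 1 or without day 12 neuron replicate 1, where 940, 907, 1075 and 1012 genes had an unadjusted p under 0.05. Without young adult neuron replicate 2 it called 3 genes, and without day 12 neuron replicate 2 it called 2. With day 12 muscle replicate 1 left out 204 genes were called, among them 69 of the 70, and with day 12 muscle replicate 2 left out 152 were called, among them 63. The direction of the difference was the same for all 70 genes in each of 22 alternative analyses. Taking 1 library from each group gave 1 direction in all 16 combinations for all 70 genes (42.3% of all tested), which is no independent check, since the call uses these libraries. The genes called most often were daf-21 and far-2, each in 17 of the 22 alternatives.

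Sorted by their fitted age changes, 66 of the 70 genes had changes of opposite sign, 16 positive in muscle and negative in neurons and 50 the reverse. For none of the 66 did both age changes pass the test singly, and some of the signs are of changes near 0, so that under the alternatives between 61 and 66 of the 70 had opposite signs (63 with DESeq2's size factors, 62 with total counts alone). Across all genes the muscle age change was called for 141 (1.57%), 54 up (0.603%) and 87 down (0.972%), with 1740 at an unadjusted p under 0.05 (19.4%). That balance turned round with DESeq2's size factors (74 up, 34 down), with total counts alone (73 and 35) and in the fit of the 8 libraries (118 and 30). The neuron age change was called for 2 (0.0223%), 1 up and 1 down (0.0112% each), with 884 at an unadjusted p under 0.05 (9.87%). Among the 66 genes, the muscle change was called for 34 and neither change for 32, and 39 had an unadjusted p under 0.05 in both tissues. At that unadjusted level 136 of all tested genes had opposite age changes (1.52%), 115 of them down in muscle. The other 4 called genes were nlp-20, T28D9.1, dlst-1 and flp-26, whose age changes had 1 sign and unequal size. Their signs too can depend on the scaling, as for nlp-20 in muscle (0.12 with DESeq2's size factors against -0.45), and the change of flp-26 in neurons is small against its error (0.48 ± 0.74).

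**Figure D1:**
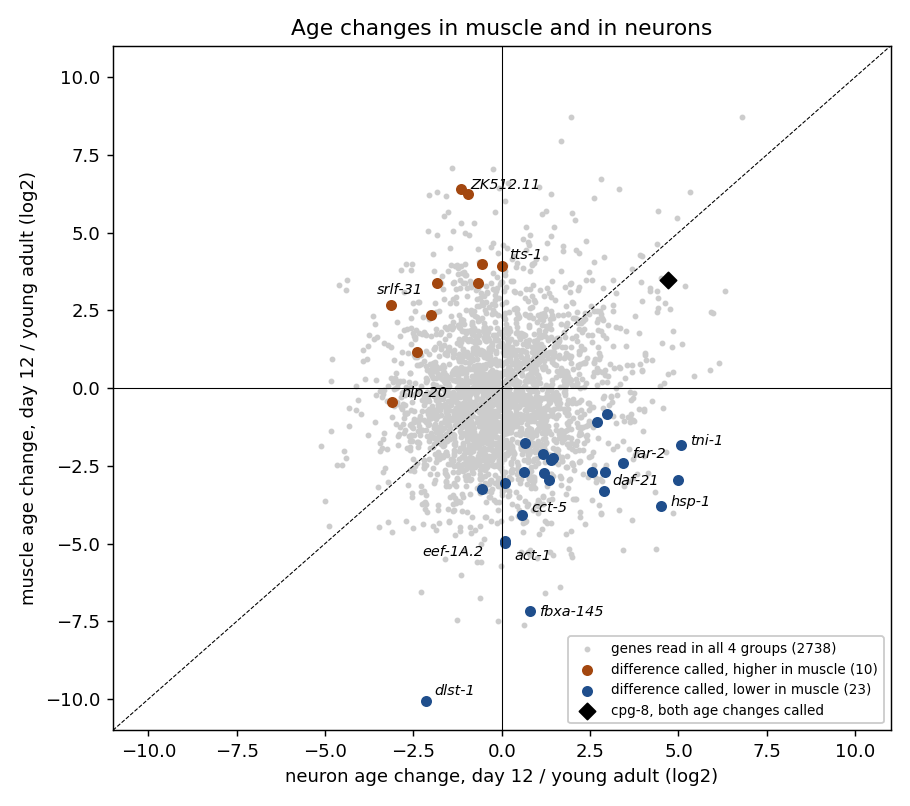
Age change in muscle (vertical) against age change in neurons (horizontal), both log2 of day 12 over young adult, for the genes read in all 4 groups, with the genes whose difference between tissues was called marked by direction, cpg-8 as a diamond, and equal change as the dashed line. The 10 called genes that were higher in muscle had median changes of 3.38 in muscle and -1.49 in neurons, and the 23 that were lower had medians of -2.74 and 1.35.

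Only 33 of the 70 had reads in all 4 groups, 10 higher and 23 lower, and the other 37 had at least 1 group without a read. Young neurons lacked reads for 25 of these 37, day 12 muscle for 8 and young muscle for 8, while day 12 neurons had reads for all. Where every group was read, the muscle change was the larger in 23 genes and the neuron change in 10. In 13 of the 33 the 95% interval of the neuron change spanned 0. A muscle change called on its own did not make a difference between tissues, since only 37 of the 141 such genes were called for it, and 75 of the others had a fitted neuron change of the same sign. Over the 2738 genes read everywhere the 95% interval of the difference had a median half-width of 4.03 on the log2 scale, so that moderate differences were not detectable at this depth and spread for most genes.

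Neuropeptide precursors were the largest group of named genes on the higher side. Of 25 FMRFamide-like genes tested 3 were called, flp-24, flp-26 and flp-28, and of 60 neuropeptide-like genes 3 were called, nlp-20, nlp-55 and nlp-79, all 6 higher in muscle relative to neurons. At an unadjusted p under 0.05 they were 11 (44%) and 23 genes (38.3%), against 3.77% of all genes, and none of either family was lower. Transcripts of nlp-55 (WBGene00008820, chromosome II, 8294829 to 8295396, WBcel235) were not read in young muscle and reached 56.2 and 40.2 CPM in day 12 muscle, while in neurons they went from 3565 and 4311 to 271 and 367. The groups did not overlap in either tissue, and aged muscle remained far below aged neurons. Against a floor of 3 counts over the young muscle group, the age ratio in muscle was at least 484-fold higher than in neurons (adjusted p = 0.0215, edgeR). The rise of nlp-55 in muscle was called (adjusted p = 0.0101), and its change of -3.62 ± 0.61 in neurons was not (adjusted p = 0.108).

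Unlike nlp-55, flp-24 (WBGene00016028, chromosome III, 725119 to 726155) changed little in neurons (-0.57 ± 0.61), so it differed mainly through muscle. It had no read in young muscle and 147 and 115.5 CPM in day 12 muscle, against 5264 and 8308 in young and 3413 and 5743 in aged neurons, where the ages overlapped. Its age ratio was at least 158-fold higher in muscle (adjusted p = 0.0215), and its rise in muscle was called (adjusted p = 0.00643). Likewise read only on day 12 in muscle, flp-28 reached 11.8 and 29.7 CPM there and 703 and 689.6 in aged neurons (at least 27.2-fold, adjusted p = 0.042). Levels of nlp-79 in day 12 muscle were 60.7 and 86.5 CPM and those of flp-26 60.7 and 63.6, with bounds of 72.7-fold and 36.3-fold (adjusted p = 0.0419 and 0.0438). All 5 were thus present in both day 12 muscle libraries and in neither young one. On the log2(RPM + 5) scale, which shrinks low levels, the differences of flp-26, nlp-79 and flp-28 were 0.14, 1.01 and 0.45 and were not called, and these genes were called in 11, 13 and 11 of the 22 alternatives. The genes flp-24 and nlp-55 were called in 13 and 14 of the 22, with smallest differences of 1.81 and 3.83.

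The most abundant member, nlp-20 (WBGene00003758, chromosome IV, 7642054 to 7643071), behaved differently and was the only gene whose fall in neurons was called. It stood at 42658 and 57894 CPM in young neurons and 5441 and 6325 in aged ones, a change of -3.10 ± 0.32 on the log2 scale (value and standard error, adjusted p = 0.0166). In muscle it was read at 2733 and 2769.6 CPM in young adults and 1427 and 2606 on day 12, where the ages did not overlap but the change was not called (adjusted p = 0.376). The difference was 2.65 ± 0.43 (adjusted p = 0.0287). Its neuron call was lost without either young muscle library or any of the 4 neuron libraries, with adjusted p-values of 0.0568 to 0.131, and in a fit of the 8 libraries alone (0.121).

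Among the peptide genes read in all 4 groups, the median FMRFamide-like age change of the 5 members read in all 4 groups was 3.10 in muscle and -1.15 in neurons, and the median difference 3.93. For the 16 neuropeptide-like genes the medians were 3.35, -0.23 and 3.16, against -0.37, -0.15 and -0.22 over all genes. With empty groups set to the floor the median differences were 4.52 and 3.85, against -0.44 over all genes. Some large differences missed the threshold, such as nlp-61 at 8.51 ± 1.76 (adjusted p = 0.0642) and flp-16 at 5.86 ± 1.43 (adjusted p = 0.105). Insulin-like peptides, which signal through the receptor DAF-2, had no called gene among 11 tested. At an unadjusted p under 0.05 there were 4 (36.4%), all higher, one of them ins-17 at 4.01 ± 0.96 (adjusted p = 0.0979). Synaptic vesicle release genes had none called of 29. At an unadjusted p under 0.05 there were 1 higher (3.45%, near the 3.77% of all genes) and 5 lower (17.2%, against 10.5%). In that group the complexin gene cpx-1 was at 3.26 ± 0.86 (adjusted p = 0.117), while the syntaxin gene unc-64 was lower in sign (adjusted p = 0.0562) with no read in young neurons.

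The share of each library taken by peptide genes moved as the single genes did. FMRFamide-like genes took 0.00716% and 0.00703% of reads in young muscle and 0.138% and 0.0633% on day 12, against 3.25% and 3.52% in young and 2.34% and 3.20% in aged neurons. Without nlp-20, the neuropeptide-like genes took 0.0162% and 0.0105% and then 0.377% and 0.248% in muscle, and 11.2% and 12.14% and then 5.59% and 4.74% in neurons. Aged muscle thus held a larger share of peptide reads than young muscle and a far smaller one than neurons. For the neuron markers in muscle, 7 and 6 of the 14 markers in the table were detected in the young muscle libraries and 7 and 5 in the aged ones, and their share went from 0.358% and 0.295% to 0.0618% and 0.106%. Without snb-1, which carried that fall, the share was 0.0241% and 0.0314% in young and 0.0394% and 0.00926% in aged muscle, with the aged libraries on either side of the young ones, and 0.333% and 0.352% and then 0.504% and 0.371% in neurons. The markers unc-119, unc-31 and sbt-1 were at 0 in all 8 libraries, and ric-4 was read 10 and 0 times in young and 25 and 0 times in aged muscle. The part of reads from other cells in these differences was not tested.

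Outside the peptide families, the higher genes included some that were read in all groups. The long noncoding RNA tts-1 (WBGene00006650, chromosome X, 1504131 to 1504841), known to bind ribosomes in long-lived worms, went from 107 and 106 CPM in young to 1119 and 2102 in aged muscle, and from 279.7 and 321 to 341 and 260.0 in neurons. The ages were apart in muscle and overlapped in neurons. The rise in muscle was 3.92 ± 0.47 (adjusted p = 0.00574), the neuron change 0.00 ± 0.43, and the difference 3.92 ± 0.62 (adjusted p = 0.0274). Transcripts of srlf-31 (WBGene00014090, chromosome IV, 11922358 to 11923174) ran in opposite directions, at 346 and 405 CPM in young and 1570.4 and 3205 in aged muscle, and at 484 and 1132 and then 100.4 and 84.8 in neurons. Neither of its age changes was called singly (adjusted p = 0.0667 in muscle and 0.125 in neurons), while their difference was 5.80 ± 0.91 (adjusted p = 0.0274).

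The calmodulin-like gene cal-2 differed mainly through neurons, where it went from 2425 and 3189 CPM to 643 and 435, against 268 and 345 and then 599 and 782 in muscle. Its difference was 3.56 ± 0.59 (adjusted p = 0.0324), and both tissues' ages were apart without a call for either. For txbp-3 both tissues contributed, at 59.7 and 55.6 CPM in young and 215 and 370.0 in aged muscle and at 1136 and 1065 and 211 and 339 in neurons, a difference of 4.34 ± 0.73 (adjusted p = 0.0324). Among genes known only by a sequence name, chosen for mention after their values were seen, ZK512.11 had the largest difference among the higher genes with reads in all groups, 7.56 ± 1.09 (adjusted p = 0.0215). It rose in muscle from 5.08 and 3.02 CPM to 298 and 384 (adjusted p = 0.0101), and aged muscle was then above aged neurons at 191 and 164. The gene Y76B12C.8 had no read in young muscle, 115 and 52.5 CPM in aged muscle and 1165 and 995 in aged neurons, a difference of at least 247-fold (adjusted p = 0.0187).

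**Figure D2:**
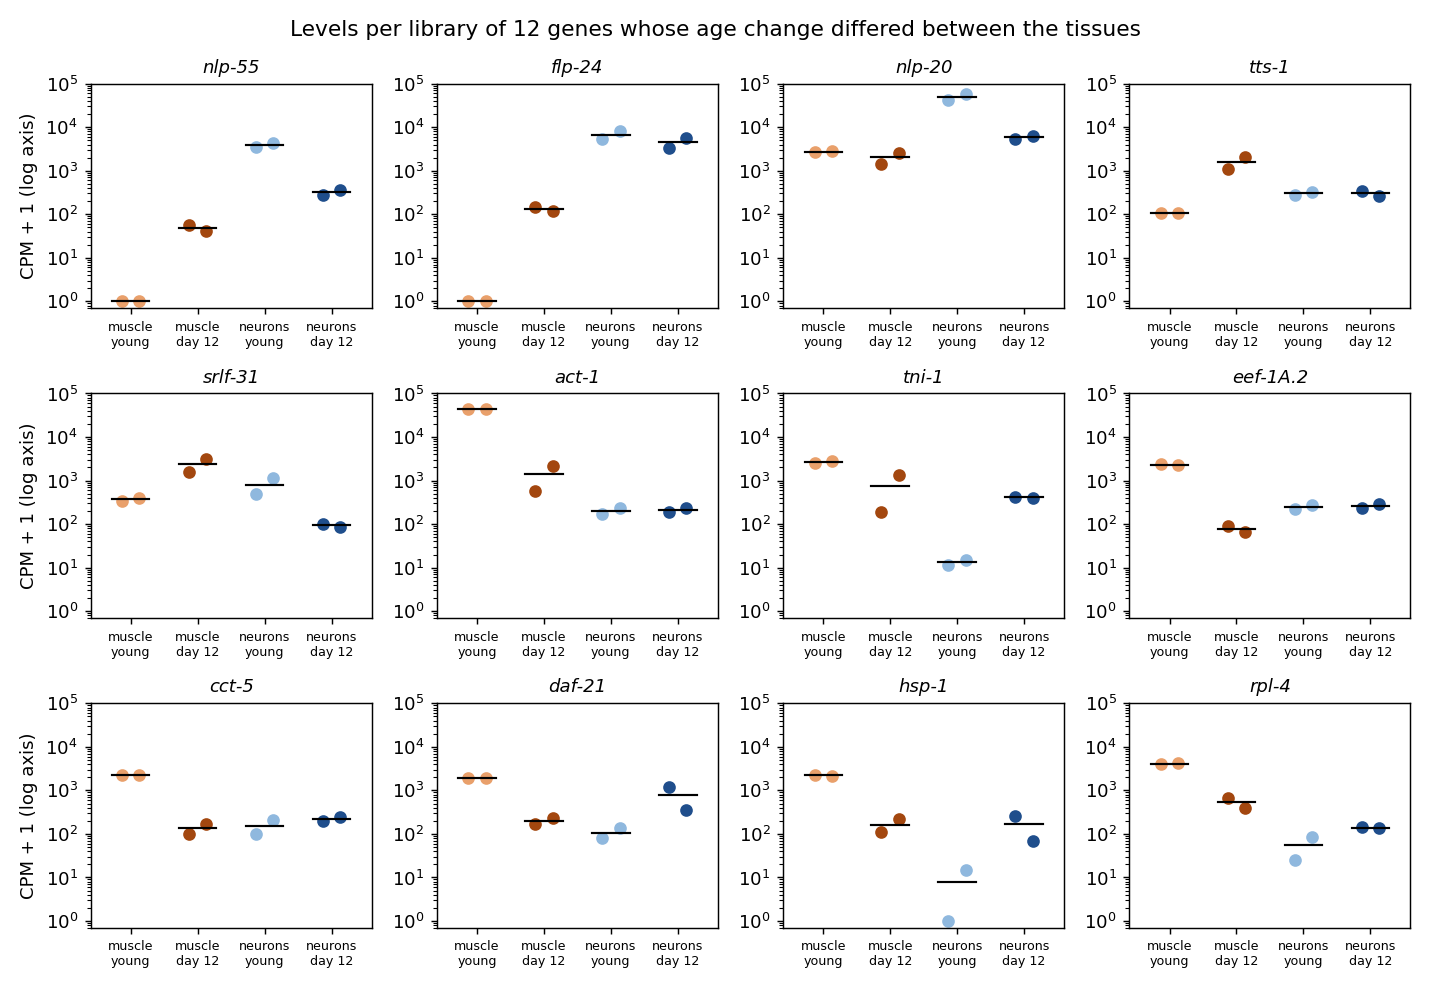
CPM + 1 (log axis) of 12 called genes in each of the 8 libraries, by tissue and age; points are libraries and bars group means. For act-1 and eef-1A.2 the aged muscle libraries lie far below the young ones while the neuron ages overlap, and for nlp-55 and flp-24 muscle goes from 0 reads to levels below those of neurons.

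On the lower side, contractile proteins held the most abundant transcripts. Of 18 sarcomere genes tested 3 were called lower, act-1, tni-1 and mlc-2, and none was higher. At an unadjusted p under 0.05 there were 10 lower (55.6%, against 10.5% of all genes) and none higher. Actin act-1 (WBGene00000063, chromosome V, 11081052 to 11082415) was read at 44103 and 44331 CPM in young muscle and 567 and 2208 in aged muscle, and at 171 and 229 and then 191 and 237 in neurons. Muscle was lower in both aged libraries, and the neuron ages overlapped. The muscle change was -4.99 ± 0.58 (adjusted p = 0.00574), the neuron change 0.10 ± 0.51, and the difference -5.10 ± 0.75 (adjusted p = 0.0215). The C. elegans actin genes are nearly identical in sequence, so reads could be split between them in the authors' counting.

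The troponin I gene tni-1 (WBGene00006584, chromosome X, 11375887 to 11377470) differed mainly through its neuron libraries. It was read at 2573 and 2819.7 CPM in young and 188 and 1337 in aged muscle, with the 2 aged libraries far apart, and at 10.2 and 14.1 CPM in young and 422 and 396 in aged neurons. The difference was -6.88 ± 1.22 (adjusted p = 0.0404), and neither age change was called (adjusted p = 0.229 and 0.108). The myosin regulatory light chain gene mlc-2 (WBGene00003370, chromosome X, 17455792 to 17456586) had no read in young neurons and 12 and 11 reads in aged ones, against 15873 and 16721 CPM in young and 2541 and 10096 in aged muscle. Its age ratio was at least 45.3-fold lower in muscle (adjusted p = 0.0244), a bound that takes the few aged neuron reads at face value. Neither age change of mlc-2 was called (adjusted p = 0.224 in muscle and 0.0663 in neurons, edgeR). Its near copy mlc-1 was at 0 reads in all 8 libraries. A second troponin I gene, tni-3, had an adjusted p of 0.0791 for the difference.

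Across the 8 sarcomere genes read in all groups, the median change was -2.57 in muscle and 0.70 in neurons, and the median difference was -3.90 (-4.04 with empty groups at the floor). All 24 sarcomere genes in the table together took 7.53% and 7.11% of reads in young and 1.69% and 2.71% in aged muscle. In neurons the share was 0.0615% and 0.0521% and then 0.257% and 0.186%. The body-wall muscle markers, some of which are also sarcomere genes, moved the same way in neurons, from 0.00788% and 0.00425% to 0.0368% and 0.0232%, with 4 and 2 of 10 markers detected in young and 5 and 6 in aged libraries and myo-3 at 0 in all 4. In muscle those markers went from 2.73% and 2.66% to 1.13% and 1.60%. The part of these marker shares in the differences was not tested.

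Chaperones, which fold other proteins, formed another group on the lower side. Of 46 heat shock and co-chaperone genes tested 3 were called lower, hsp-1, daf-21 and dnj-19. At an unadjusted p under 0.05 there were 15 lower (32.6%, against 10.5% of all genes) and none higher. The Hsp90 gene daf-21 (WBGene00000915, chromosome V, 14684918 to 14688545) was at 1964 and 1965 CPM in young and 172 and 226 in aged muscle, and at 78.5 and 134 CPM in young and 1225 and 350.4 in aged neurons. Neither tissue's ages overlapped, and they moved in opposite directions. The muscle change was -3.30 ± 0.57 (adjusted p = 0.0281), the neuron change 2.88 ± 0.58 (adjusted p = 0.122), and the difference -6.18 ± 0.81 (adjusted p = 0.0215). Its 2 aged neuron libraries lay far apart.

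The constitutive Hsp70 gene hsp-1 (WBGene00002005, chromosome IV, 17278959 to 17281330) had a still larger difference of -8.29 ± 1.32 (adjusted p = 0.0287), on few neuron reads. It was at 2281 and 2190.0 CPM in young and 109.5 and 215 in aged muscle, and was read 0 and 4 times in young and 26 and 12 times in aged neurons. Without young neuron replicate 2, which held all the young neuron reads, the fitted difference was -15.13. The ages did not overlap in either tissue, and neither change was called singly (adjusted p = 0.0618 and 0.136). The DnaJ-type co-chaperone gene dnj-19 had no read in young neurons and only 6 in aged ones, and its neuron change was not called (adjusted p = 0.179, edgeR). Its age ratio was at least 59.1-fold lower in muscle (adjusted p = 0.0438), a bound that takes those 6 reads at face value. The p23 co-chaperone gene daf-41 was at -3.56 ± 0.89 (adjusted p = 0.106) and was not called. Outside the heat shock list, the small TPR co-chaperone gene sgt-1 had no read in young neurons, 14 and 19 reads in aged neurons, and 312 and 509 reads in young and 46 and 34 in aged muscle. Its age ratio was at least 188-fold lower in muscle (adjusted p = 0.0215).

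The 8 subunits of the CCT chaperonin, which folds actin and tubulin, were lower in fitted value wherever all groups were read. The test called cct-5 alone, and 7 of the 8 (87.5%, against 10.5% of all genes) had an unadjusted p under 0.05, all lower. At 2316 and 2204 CPM in young and 97.7 and 168.0 in aged muscle, cct-5 (WBGene00000380, chromosome III, 4499188 to 4508114) fell by 4.08 ± 0.54 (adjusted p = 0.00959). In neurons it was at 98.9 and 205 CPM and then 201 and 249, a change of 0.57 ± 0.50 with overlapping ages, and the difference was -4.65 ± 0.72 (adjusted p = 0.0274). In muscle the subunit cct-1 fell by 7.61 ± 1.26 (adjusted p = 0.0232), with a difference of -8.25 ± 1.75 (adjusted p = 0.0658), while cct-7 was at -6.52 ± 1.51 (adjusted p = 0.0842). For the 6 subunits read in all groups the medians were -5.02 in muscle, 0.72 in neurons and -5.51 for the difference. All 8 subunits together took 0.378% and 0.353% of reads in young muscle, 0.0433% and 0.0311% in aged muscle, 0.0363% and 0.0237% in young neurons and 0.0963% and 0.0696% in aged neurons.

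Translation genes were called lower in 2 lists. Among 39 translation factors the called genes were eef-1A.2 and the helicase gene inf-1 (eIF4A). At an unadjusted p under 0.05 there were 9 lower (23.1%, against 10.5% of all genes) and none higher. Elongation factor gene eef-1A.2 (WBGene00001169, chromosome X, 7823654 to 7825769) was at 2423 and 2229 CPM in young and 88.8 and 64.2 in aged muscle, and at 218 and 268 and then 231 and 288 in neurons, where the ages overlapped. In muscle it fell by 4.93 ± 0.50 (adjusted p = 0.00574). It changed by 0.10 ± 0.44 in neurons, and had a difference of -5.03 ± 0.65 (adjusted p = 0.0215). Its close paralogue eef-1A.1 encodes an almost identical protein, so the split of reads between them is uncertain. For inf-1 the levels were 865 and 966 and 198 and 190.3 CPM in muscle and 92.1 and 70.6 and 201 and 243 CPM in neurons, young then aged, with no overlap and a difference of -3.69 ± 0.61 (adjusted p = 0.0324).

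Of 79 cytosolic ribosomal protein genes 5 were called lower, rpl-1, rpl-4, rpl-5, rpl-18 and rps-6. At an unadjusted p under 0.05 there were 29 lower (36.7%, against 10.5% of all genes) and none higher. The muscle age change was called down for 15 of the 79 and up for none. The largest difference was that of rpl-4, -4.31 ± 0.72 (adjusted p = 0.0324), with 4067 and 4179 CPM in young and 662 and 395 in aged muscle and 23.9 and 84.7 and then 141 and 136 in neurons. The smallest was that of rpl-5, -3.15 ± 0.55 (adjusted p = 0.0378), whose neuron ages overlapped. As a family the ribosomal genes stood closer to the background than these 5, since the median age change of the 78 members read in all 4 groups was -1.02 in muscle and -0.31 in neurons, and the median difference -0.65. All 81 ribosomal genes in the table together took 32.4% and 33.2% of reads in young and 22.5% and 28.96% in aged muscle, and 3.27% and 3.69% and then 3.92% and 4.05% in neurons. Of 70 mitochondrial ribosomal genes mrpl-34 was called lower, with no read in young neurons.

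Energy metabolism gave fewer calls. Of 31 citrate cycle genes dlst-1, which encodes the succinyltransferase of the alpha-ketoglutarate dehydrogenase complex, was called lower. It was read 633 and 1763 times in young muscle and 0 and 2 times in aged muscle, a ratio of young to aged of 1126-fold (95% interval 311 to 9300.3), and its fall was called (adjusted p = 0.00574). In neurons it went from 64.8 and 166 to 30.1 and 22.6 CPM, on 7 reads in the aged libraries. The ages did not overlap there, as for 13.2% of all genes, and the neuron change of -2.15 ± 0.84 was not called (adjusted p = 0.426, edgeR). The difference between tissues was -7.90 ± 1.32 (adjusted p = 0.0324). Citrate synthase cts-1 and enolase enol-1 fell in muscle (adjusted p = 0.0343 and 0.0401), and their differences of -3.70 ± 1.04 and -3.03 ± 0.90 were not called (adjusted p = 0.139 and 0.151). No glycolysis gene was called of 27, with 7 lower (25.9%) and none higher at an unadjusted p under 0.05. No oxidative phosphorylation gene was called of 72. At an unadjusted p under 0.05 there were 10 higher (13.9%, against 3.77% of all genes) and 8 lower (11.1%, near the 10.5% of all genes). In that list the complex I gene ndub-7 was at 3.87 ± 0.96 (adjusted p = 0.105) and ndua-8 at -4.87 ± 1.27 (adjusted p = 0.117).

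Genes of RNA processing and protein breakdown were mostly on the lower side without many calls. Of 60 splicing genes rnp-3, which encodes a U2 snRNP protein, was called. At an unadjusted p under 0.05 none was higher and 22 were lower (36.7%, against 10.5% of all genes), among them rsp-1 at -4.34 ± 0.85 (adjusted p = 0.0525). Of 31 proteasome genes none was called, and 13 were lower (41.9%) and 1 higher (3.23%) at an unadjusted p under 0.05. The median differences of those read in all groups were -2.11 for splicing and -1.89 for the proteasome, against -0.22 for all genes. The DEAD-box helicase gene hel-1 was called at -5.63 ± 0.91 (adjusted p = 0.0296), with 854 and 803 CPM in young and 91.8 and 161 in aged muscle and 13.6 and 52.9 and then 221 and 283 in neurons. Of 12 histone genes 3 were higher (25%, against 3.77% of all genes) and none lower at an unadjusted p under 0.05, and none was called. 

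**Figure D3:**
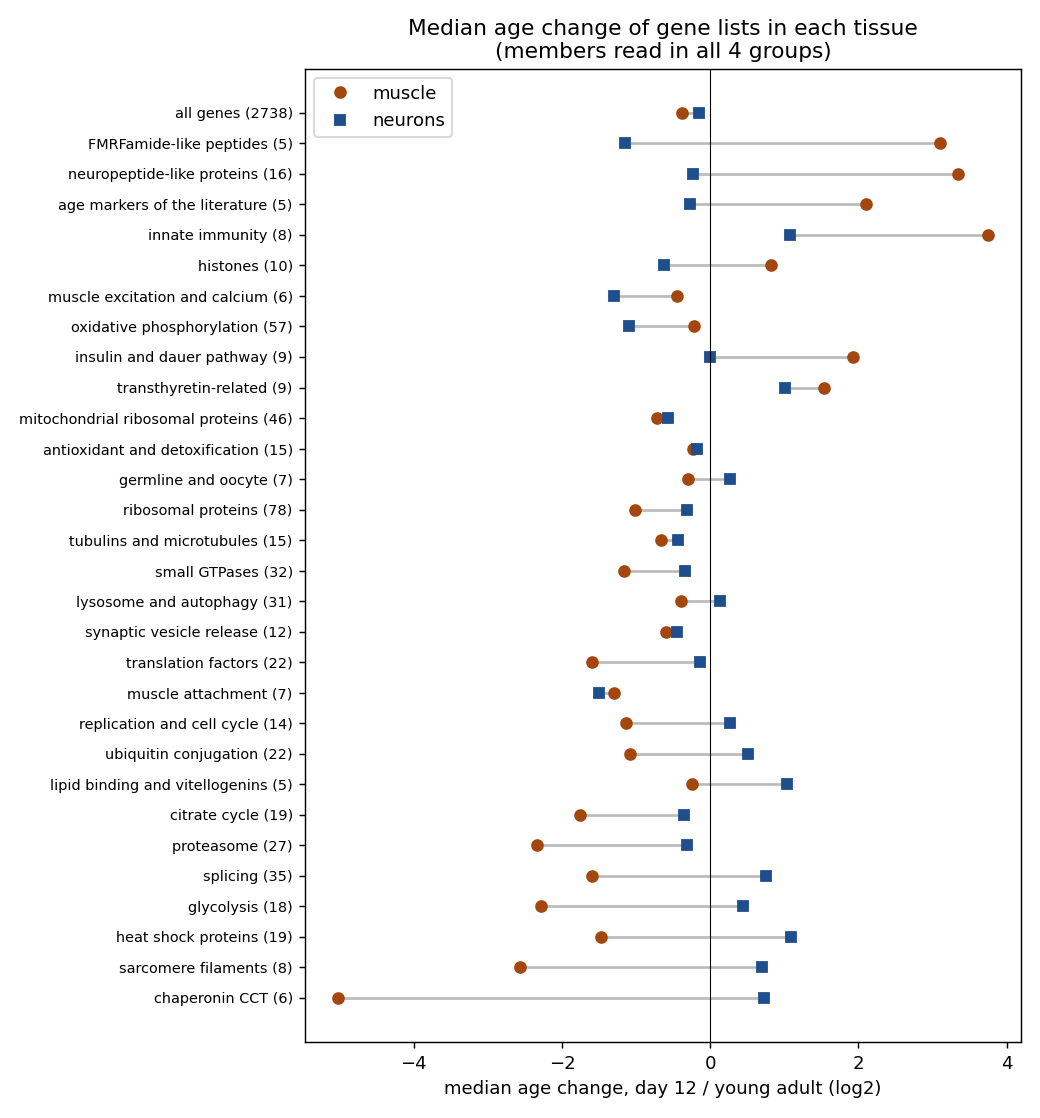
Median age change (log2, day 12 over young adult) in muscle and in neurons of the listed gene groups, over the members read in all 4 groups, for lists with at least 5 such members (their number in brackets); circles are muscle, squares neurons. The CCT chaperonin has the lowest muscle median at -5.02 beside 0.72 in neurons, and the FMRFamide-like genes stand at 3.10 and -1.15.

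Several other lower genes were read in all groups. The fatty acid and retinol binding protein gene far-2 (WBGene00001386, chromosome III, 9081828 to 9082511) was at 23115 and 23985 CPM in young and 3524 and 5258 in aged muscle, a change of -2.42 ± 0.44 (adjusted p = 0.0337). In neurons it was read 2 and 1 times in young and 9 and 5 times in aged animals, a ratio of aged to young of 9.73-fold (95% interval 2.72 to 52.8). The difference was -5.84 ± 0.77 (adjusted p = 0.0215), while its relative far-1 fell in muscle (adjusted p = 0.0145) with a difference of -2.31 ± 0.50 that was not called (adjusted p = 0.0671). The nucleosome assembly gene nap-1 was at 2129 and 2382 CPM and then 345 and 332 in muscle and 47.8 and 45.9 and then 120.5 and 96.1 in neurons, a difference of -3.94 ± 0.55 (adjusted p = 0.0215) with no overlap in either tissue. The cyclophilin gene cyn-7 differed more through neurons, with 37.5 and 74.1 CPM in young and 341 and 379 in aged ones against 3723 and 4651 and 1575 and 2337 in muscle, a difference of -3.79 ± 0.55 (adjusted p = 0.0215). The nascent chain binding gene icd-1 had the smallest called difference, -2.41 ± 0.45 (adjusted p = 0.0438).

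For the lower genes that had no read in at least 1 group, fitted values depend on the prior count, so bounds against a floor of 3 counts are given. All such bounds take the mean levels of the groups with reads at face value. The akirin gene akir-1 had no read in young neurons, 90.4 and 96.1 CPM in aged neurons, and 307 and 346 then 35.5 and 98.2 CPM in muscle, a difference of at least 87.6-fold (adjusted p = 0.0215). Transcripts of arx-2, a subunit of the actin-nucleating Arp2/3 complex, were at 165 and 180.1 CPM in young muscle and not read in aged muscle, at least 132-fold lower (adjusted p = 0.0223). In neurons arx-2 was read 1 and 0 times in young and 2 and 20 times in aged animals, and the difference was called (adjusted p = 0.0215). The adaptor gene dab-1 had reads in young muscle (49.6 and 22.4 CPM) and aged neurons (30.1 and 45.2 CPM) but in no library of the other 2 groups, a difference of at least 199-fold (adjusted p = 0.0287). At the threshold, cdk-9 was the last gene called. Its aged neuron counts were 4 and 3.

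In young adults all 70 genes stood apart by tissue. Both young muscle libraries were above both young neuron libraries for 52 of the 52 lower genes, as for 39.8% of all tested genes, and below them for 18 of the 18 higher genes, as for 16.9%. These young libraries also enter the difference itself, so the order is given as a description. For 60 of the 70 (85.7%) the tissue gap was smaller on day 12, against 52.9% of all tested genes, and since both gaps make up the called difference nothing is read from this. Among the 33 read in all groups the median young gap (muscle minus neurons, log2) was -4.22 for the 10 higher and 5.16 for the 23 lower genes, and the day 12 gap 0.22 and 0.90. The tissue means on day 12 lay within 2-fold of each other for 11 of the 33, and for none in young adults. Among all 2738 genes read in all groups the gap was smaller on day 12 for 60.4%, against 84.8% of the 33. Because the 33 were called for a change between these same gaps, these values are a description only. Aged muscle libraries were above young ones without overlap for 17 of the 18 higher genes (12.6% of all genes) and below for 51 of the 52 lower (32.4%). Aged neuron libraries were above young ones for 43 of the 52 lower genes (16.1%) and below for 13 of the 18 higher (13.2%). These shares are over all tested genes, some of which had no read in a tissue at either age. Such genes cannot stand apart by age there, so the shares are not like for like.

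**Figure D4:**
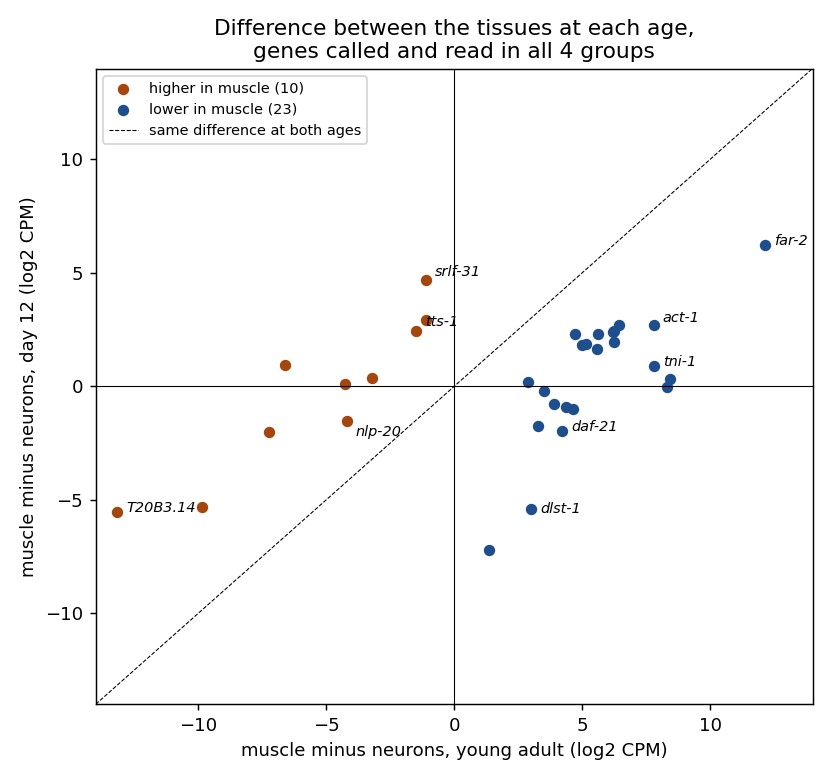
Muscle minus neuron level (log2) on day 12 against the same in young adults for the 33 called genes read in all 4 groups; the dashed line marks an equal gap at both ages. The 23 lower genes have a median gap of 5.16 in young adults and 0.90 on day 12, and the 10 higher genes -4.22 and 0.22. Both gaps make up the called difference, so nothing is read from their change.

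Levels in the second tissue are set against both ages of the first. For the higher genes the mean level in day 12 muscle was a median 7.70% of that in young neurons, ranging from 1.11% to 536%, with 7 of 18 below 5%, and a median 24% of that in day 12 neurons. For the lower genes the mean level in day 12 neurons was a median 10.2% of that in young muscle, from 0.252% to 104.8%, with 11 of 52 below 5%, and a median 61.3% of that in day 12 muscle. The germline marker list was mainly pie-1, read 670 and 642 times in young neurons. Genes called lower were read in a library pair tagged in multiple tissues at median levels of 263 and 257 CPM, and genes called higher at 4.29 and 7.21 CPM, against 9.25 and 9.06 for all tested genes. Their part in the differences was not tested.

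**Figure D5:**
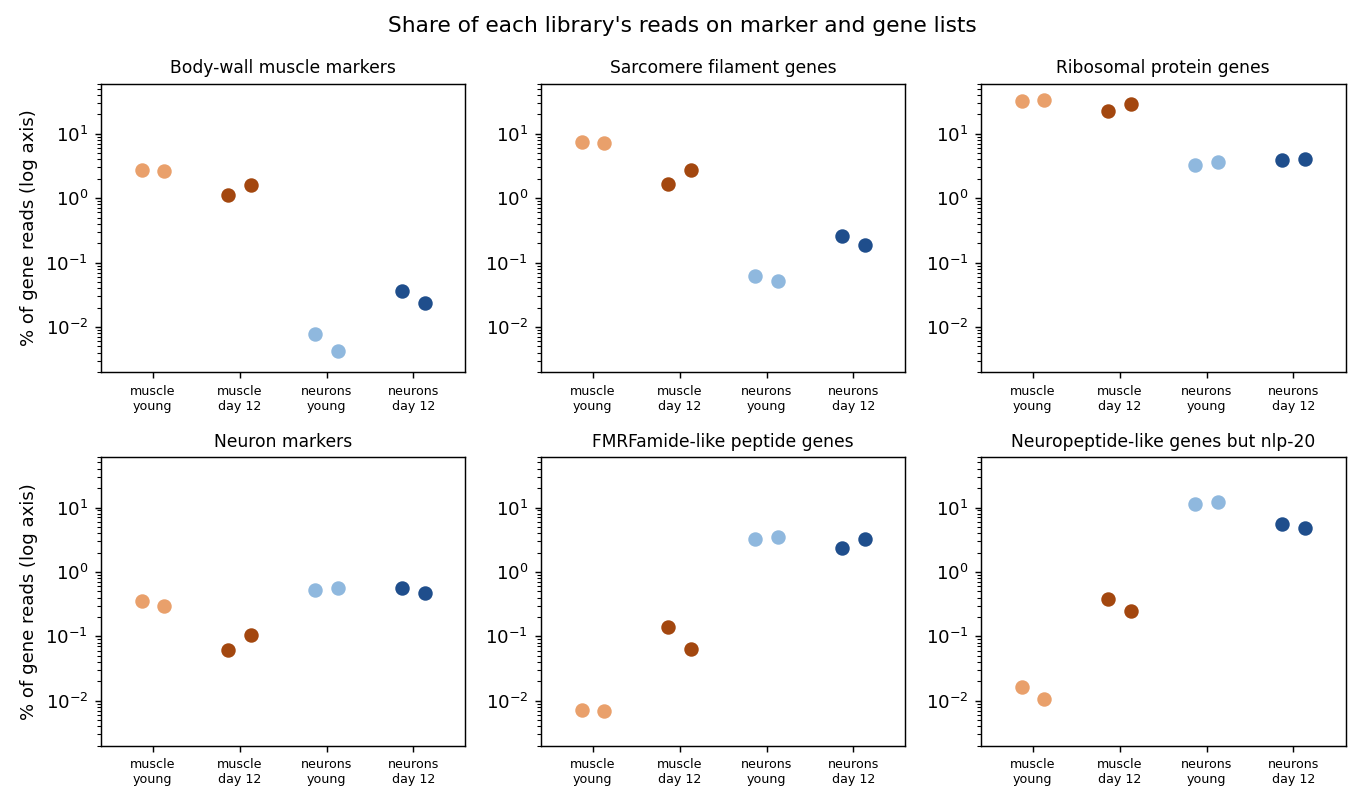
Share of reads (%, log scale) taken in each of the 8 libraries by the body-wall muscle and neuron markers and by the sarcomere, ribosomal and peptide lists; points are libraries. Muscle markers take 1.13% or more in the muscle libraries and at most 0.0368% in the neuron libraries.

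Few age changes were called as shared. The only gene called in both tissues was the chondroitin proteoglycan gene cpg-8 (WBGene00019357, chromosome V, 4691605 to 4692432), read 82 and 274 times in young and 1072 and 2282 times in aged muscle, and 2 and 3 and then 24 and 39 times in neurons. It rose by 3.47 ± 0.46 in muscle (adjusted p = 0.00895) and by 4.72 ± 0.54 in neurons (adjusted p = 0.0214), where the ratio of aged to young was 26.3-fold (95% interval 10.7 to 83.7). The difference of -1.25 ± 0.67 had a 95% interval from -2.73 to 0.23 (adjusted p = 0.459). Its muscle call was lost without either young muscle library (adjusted p = 0.138 and 0.101), and its neuron call without either young muscle library or any of the 4 neuron libraries (adjusted p = 0.0568 to 0.164), in the fit of the 8 libraries alone (0.121) and with libraries thinned to equal depth (0.0788).

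At an unadjusted p under 0.05 in both tissues, 180 genes changed with 1 sign (2.01%), 110 up and 70 down. Examples chosen after their values were seen include the caveolin gene cav-1, at 5.46 in muscle and 4.95 in neurons, with a difference of 0.51 ± 1.18. The tubulin gene tba-2 was at -2.07 and -1.58 (95% interval of the difference -1.77 to 0.80), and the proteasome gene pas-2 at -3.36 and -2.55 (interval -2.90 to 1.28). The ribosomal gene rpl-9 was at -1.22 and -1.14, and its interval of -1.03 to 0.87 was among the narrowest. Over all tested genes 411 had a 95% interval of the difference that lay within 1 of 0 on the log2 scale. That count can include genes without a read in any of the 4 groups, so it does not show equal change. For genes read in all groups the half-width had a median of 4.03 and a lower quartile of 2.54, so equal change was bounded for few. Across the 2738 genes read everywhere the age changes of the tissues, which share no library, had a Pearson r of 0.089 and a Spearman rho of 0.070, across genes, which are not independent replicates and share the scaling.

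Because the leader marks the 5' end of each message, the deposited splice sites give the position where tagged messages of these genes begin. A trans-splice site was listed for all 70 genes. For 66 of them the most used site lay within 100 bases upstream of the start codon of the WBcel235 annotation. Only 23 of the 70 had reads at over 1 site, and only for these could the most used site differ between groups. It was the same in every group with at least 10 reads for 67 of the 70, a count that includes the genes with 1 site. The exceptions were flp-26, cct-5 and K07F5.16. For cct-5 the main site took 99.5% of site reads in young and 87.6% in aged muscle, and 41.4% and 42.2% in neurons. For flp-26 it took 12.5% in aged muscle, and 100% and 94.9% in young and aged neurons. Of the 70 genes 10 lie in operons, as do 1723 of the 8954 tested.

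The authors' deposited tables compared the ages within each tissue and held no test between tissues. At an adjusted p under 0.05, the authors' deposited table for muscle listed 221 genes, 154 up and 67 down. The authors' deposited table for neurons listed 144, 81 up and 63 down. Among the 8024 genes present in both of the authors' deposited tables, 27 passed in both tissues, 21 up in both, none down in both and 6 in opposite directions. Of those 6, daf-21 was the one down in muscle and up in neurons, with folds of 0.145 and 9.60 in the authors' deposited tables. All 70 genes called here are in the authors' deposited tables, where 20 passed in muscle, 12 in neurons and 4 in both, each of the 4 in opposite directions.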

How the data were processed

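RNA was made from worms whose SL1 leader was tagged in muscle or neurons, and libraries of the tagged messages were sequenced. Per the submitters' processing notes Trimmomatic, TopHat2 and DESeq were used; the genome build is not given in the sources used here, and 90.6% of the deposited cis-splice sites fall on exon starts of WBcel235. The deposited files give raw read counts per gene, RPM computed by the authors, normalised signal means, fold ratios between ages and p-values from the authors' tests; 3 column sets match no library here and were not used. Members and gene lists were chosen with earlier results of these data known. Counts were analysed in R 4.3.3 with edgeR 4.0.16 (filterByExpr, TMM, quasi-likelihood F test, Benjamini-Hochberg over 8954 genes, threshold 0.05) in 1 fit of 14 SL1 libraries in 8 groups; limma 3.58.1 and DESeq2 1.42.0 gave alternatives, and the fit was tested on simulated data. The tests have 6 residual degrees of freedom. P-values measure the spread between these libraries. Values after ± are standard errors. Reads carry no molecular identifiers, so intervals (95%, exact) and floors (3 counts) cover counting error only. Named genes were the promoter gene myo-3, the called genes with a symbol that had a mean log2 CPM of at least 5 and 1 direction in all 16 combinations (up to 12 in each direction with reads in all groups and 6 with an empty group), genes called in both tissues, and up to 4 of each list; only some of these are described. The alternatives were another scaling, filter, test, set of libraries, a replicate block, thinning and leaving out each library.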

Additional observations from a re-analysis of the deposited data

Results flagged for a closer look

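The age change differed between muscle and neurons for 70 genes by the edgeR test of the difference itself, and each is given here with its difference on the log2 scale. Higher in muscle relative to neurons, with reads in all 4 groups, were nlp-20 (2.65), cal-2 (3.56), tts-1 (3.92), C31H5.4 (4.04), txbp-3 (4.34), K07C10.3 (4.53), Y57G11C.38 (5.22), srlf-31 (5.80), T20B3.14 (7.19) and ZK512.11 (7.56). Higher with at least 1 group without a read were flp-28 (8.87), flp-26 (9.26), nlp-79 (10.26), T23B12.11 (10.69), flp-24 (11.38), Y76B12C.8 (12.02), C43F9.7 (12.07) and nlp-55 (12.99). Lower with reads in all 4 groups were hsp-1 (-8.29), fbxa-145 (-7.96), K07A12.1 (-7.94), dlst-1 (-7.90), tni-1 (-6.88), daf-21 (-6.18), far-2 (-5.84), hel-1 (-5.63), lpd-6 (-5.27), act-1 (-5.10), eef-1A.2 (-5.03), cct-5 (-4.65), rpl-4 (-4.31), nap-1 (-3.94), Y94H6A.10 (-3.80), cyn-7 (-3.79), rpl-18 (-3.71), inf-1 (-3.69), rpl-1 (-3.33), rps-6 (-3.29), rpl-5 (-3.15), T28D9.1 (-2.68) and icd-1 (-2.41). Lower with at least 1 group without a read were dab-1 (-17.98), cdk-9 (-17.96), nkat-3 (-17.63), ent-1 (-17.23), arx-2 (-16.46), sgt-1 (-13.72), fubl-2 (-13.39), K07F5.16 (-12.84), F53E10.6 (-12.78), akir-1 (-12.60), T23D8.3 (-12.24), tald-1 (-12.13), M57.2 (-12.04), dnj-19 (-11.95), mlc-2 (-11.63), alh-12 (-11.42), T20B12.7 (-11.41), Y48A6B.3 (-11.29), ekl-1 (-10.84), rnp-3 (-10.78), pnn-1 (-10.69), W09C5.1 (-10.50), F10E9.4 (-10.46), C27C7.1 (-10.41), T05G5.1 (-10.27), T23G7.3 (-10.19), mrpl-34 (-9.95), R12C12.5 (-9.74) and pqn-59 (-8.60). The fitted value of a gene with an empty group depends on the prior count and is no bound. Groups of 2 libraries are too small for a search for single outlying libraries.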

How the results depend on the processing

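Alternatives were chosen with earlier results of these data known, and scaling by total counts alone and leaving out the shallower library of both day 12 groups were added after seeing the data. In the order difference between tissues, muscle ageing, neuron ageing, shared direction and opposite direction, the main counts were 70, 141, 2, 1 and 66. Counts that moved beyond 1.5 times are given by setting. The DESeq2 Wald test gave 550, 877, 309, 64 and 459. No filter on low counts gave 362, 612, 149, 37 and 317, and a filter of 50 counts in 2 libraries gave 136, 258, 18, 2 and 117. Voom with library weights gave 618, 667, 725, 80 and 575. Limma on log2(RPM + 1) gave 1135, 881, 1087, 78 and 1060, on log2(RPM + 5) 1139, 901, 1049, 54 and 994, and on log2(RPM + 1) with no filter 943, 691, 1032, 65 and 888. Libraries thinned to equal depth gave 20, 37, 1, 0 and 18. The SL2-tag library added gave 46, 82, 9, 2 and 41. DESeq2's size factors gave 10 neuron and 2 shared calls, total counts alone 13 and 2, and the 8 libraries alone 0 and 0. Without the shallower library of both day 12 groups there were 153 differences, 135 opposite, and no neuron or shared call. Leaving out each library in turn gave 0 to 204 differences, 0 to 212 muscle, 0 to 24 neuron, 0 to 4 shared and 0 to 170 opposite calls. A replicate block gave 111 differences, 33 neuron and 8 shared calls. For 3852 genes, the difference of replicate 2 minus replicate 1 within a group was compared between groups. These differences correlated by -0.046 to 0.038, so no pattern common to a replicate number was seen. The 8-library fit called 51 higher and 20 lower, against 18 and 52. The difference for cpg-8 reversed to 0.54 under limma on log2(RPM + 5), and the uncalled muscle change of nlp-20 (-0.45) to 0.12 under both DESeq2 settings, 0.14 under the 50-count filter and total counts, 0.058 with the SL2-tag library and 0.35 without the shallower day 12 libraries, with -0.95 to 0.054 over the single libraries left out. Over the called genes and alternatives 618 values lost the call and 922 kept it, all in the same direction. The cause was not tested. Depth of the aged neuron libraries limits transcripts under 30.1 and 16.96 CPM there.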
